A study of Mus musculus with 10 samples.

Results

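The common gamma chain cytokine receptors were followed through 5 groups of pmel-1 mouse CD8 T cells by bulk RNA sequencing. The family was taken as the 8 genes that encode the shared chain and the chains that pair with it (Il2ra, Il2rb, Il2rg, Il4ra, Il7r, Il9r, Il15ra and Il21r), listed by name with no cut on a measured value, out of 55359 gene identifiers counted. Pmel-1 cells carry a transgenic T cell receptor for the melanoma antigen gp100. In all groups, mouse spleen cells were activated for 48 h with hgp100 and then kept for a further 48 h with hIL-2, and IL-2 is a ligand of receptors in this family. The IL12/DRIL18 cells were electroporated with a mixture of scIL12 and DRIL18 mRNA, the IL-12 cells with mRNA for single-chain IL-12, and the DRIL18 cells with mRNA for decoy-resistant IL-18, an IL-18 that escapes its soluble binding protein. Mock cells are the electroporated controls, and the sources used here do not say which mRNA, if any, they received. NoEp cells were not electroporated. RNA was taken 24 h after electroporation, and each group has 2 libraries. The labels call these biological replicates without tying them to separate animals, so all p-values measure the spread between these libraries. The cells are a bulk spleen culture and not a sort, and fewer cells of a type and less RNA per cell cannot be told apart in these counts.

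Receptors of this family share the gamma chain encoded by Il2rg and differ in the chains that bind it. The beta chain (Il2rb) signals with the gamma chain for IL-2 and IL-15, and the alpha chains Il2ra (CD25) and Il15ra raise the affinity for one of these ligands each. Il7r, Il4ra, Il9r and Il21r encode the specific chains for IL-7, IL-4, IL-9 and IL-21. The specific chains bind the kinase JAK1 and the gamma chain binds JAK3, and these kinases phosphorylate STAT proteins, mainly STAT5 for IL-2, IL-7, IL-9 and IL-15, STAT6 for IL-4 and STAT3 for IL-21. In CD8 T cells, CD25 marks activated cells that take up IL-2, and IL-7 receptor marks naive and long-lived memory cells.

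The promoters of the 4 genes whose levels with both mRNAs departed from the sum of the single effects are printed here, from 250 bases before to 50 bases after the start site (RefSeq, build GRCm38.p6). They lie at chr2:11642542-11642841 on the plus strand (Il2ra), chr15:9529827-9530126 on the minus strand (Il7r), chr7:125552021-125552320 on the plus strand (Il4ra) and chr7:125603179-125603478 on the plus strand (Il21r), and each is written 5′ to 3′ on the strand of its gene. Capitals mark matches to a STAT motif (TTCNNNGAA) or an NF-kB motif (GGGANNNNCC) on either strand.
Il2ra: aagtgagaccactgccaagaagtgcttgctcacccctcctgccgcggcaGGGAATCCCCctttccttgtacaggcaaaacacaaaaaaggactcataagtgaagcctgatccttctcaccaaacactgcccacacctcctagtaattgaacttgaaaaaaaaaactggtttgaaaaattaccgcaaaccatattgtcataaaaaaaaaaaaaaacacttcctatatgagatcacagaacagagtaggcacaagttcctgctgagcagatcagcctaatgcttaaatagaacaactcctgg
Il7r: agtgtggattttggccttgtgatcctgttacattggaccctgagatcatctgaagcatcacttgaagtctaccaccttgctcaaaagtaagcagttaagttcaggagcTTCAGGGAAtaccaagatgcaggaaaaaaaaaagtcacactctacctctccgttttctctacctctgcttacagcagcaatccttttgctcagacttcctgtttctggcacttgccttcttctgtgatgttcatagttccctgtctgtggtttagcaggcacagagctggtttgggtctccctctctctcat
Il4ra: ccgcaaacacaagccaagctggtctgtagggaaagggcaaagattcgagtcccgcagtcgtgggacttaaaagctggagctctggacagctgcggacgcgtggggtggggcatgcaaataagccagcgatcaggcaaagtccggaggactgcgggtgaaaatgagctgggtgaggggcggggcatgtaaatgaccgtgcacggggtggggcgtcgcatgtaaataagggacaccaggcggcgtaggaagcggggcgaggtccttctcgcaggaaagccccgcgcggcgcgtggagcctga
Il21r: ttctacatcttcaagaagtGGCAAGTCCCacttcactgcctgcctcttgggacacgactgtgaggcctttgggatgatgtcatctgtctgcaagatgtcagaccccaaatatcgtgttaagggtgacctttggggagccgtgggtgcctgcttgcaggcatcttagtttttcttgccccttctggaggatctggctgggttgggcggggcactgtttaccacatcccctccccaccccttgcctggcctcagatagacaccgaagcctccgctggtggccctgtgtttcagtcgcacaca
The Il2ra and Il21r windows each hold 1 NF-kB match, that of Il21r on the opposite strand, and the Il7r window holds 1 STAT match that begins at position -142 relative to the start site. The Il4ra window holds neither. Of 32851 mouse promoters of the same length, 20.7% hold the NF-kB letters and 8.3% the STAT letters. Matches to an AP-1 motif (TGANTCA, in 7.81% of promoters) and to a T-box motif (AGGTGTGA, in 1.28%) were absent from these 4 windows, and the motifs searched do not overlap one another in them. A second promoter of Il15ra holds 1 AP-1 match, and the listed promoters of Il2rg and Il9r and the first of Il15ra hold none of the 4 motifs. A match is a run of letters and not a bound site.

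The libraries held 31281944 to 35062545 counts each, and 15777 genes passed the filter on low counts. Of the receptor genes, 7 passed it, with at least 583 counts in every library, and Il9r did not, so Il9r has levels and no test. Levels are counts scaled to library depth (CPM) on library sizes scaled by TMM, and levels of different genes are compared per exon length (RPKM). The 6 CD8 T cell markers Cd3d, Cd3e, Cd3g, Cd8a, Cd8b1 and Trac were all detected, and their summed level was 2150 to 2171 CPM in IL12/DRIL18, 2558 to 2628 in IL-12, 2981 to 2982 in DRIL18, 3100 to 3118 in Mock and 3220 to 3329 in NoEp libraries. The mark bis stands in the column names of both IL12/DRIL18 and both NoEp libraries, of 1 IL-12 and 1 DRIL18 library and of no Mock library, and no label explains it.

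With both mRNAs, the IL-2 receptor chains went up and the specific chains for IL-7, IL-4 and IL-21 went down. Against Mock, 3 receptor genes rose (Il2ra, Il2rb, Il2rg) and 3 fell (Il7r, Il4ra, Il21r) of the 7 tested, where 63.9% of all tested genes changed (32% higher and 31.9% lower, by edgeR's quasi-likelihood test at an adjusted p under 0.05). IL-12 mRNA alone raised Il2ra, Il2rb, Il2rg and Il7r and lowered Il4ra, 5 of 7 against 46.6% of all tested genes (23% higher and 23.6% lower). DRIL18 alone raised Il2ra, Il2rg and Il15ra and lowered Il2rb and Il21r, 5 of 7 against 24.3% of all tested genes (12.2% higher and 12.1% lower). Between Mock and NoEp, Il2ra was higher and Il7r lower in Mock, 2 of 7 against 6.98% of all tested genes (3.34% higher and 3.64% lower). The comparisons with Mock share the same Mock libraries. The median log2 fold change of the 7 genes was 0.08 with the mixture, 0.23 with IL-12 and 0.04 with DRIL18, beside -0.0021, -0.0065 and 0.0043 for all tested genes. With the mixture, 4.78% of tested genes changed at least as much as Il2ra. That share was 23.2% for Il7r, 37.7% for Il4ra and 42.7% for Il21r. It was 54.7% for Il2rb and 68.0% for Il2rg, which rose by less than the median absolute log2 change of 0.47.

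**Figure D1:**
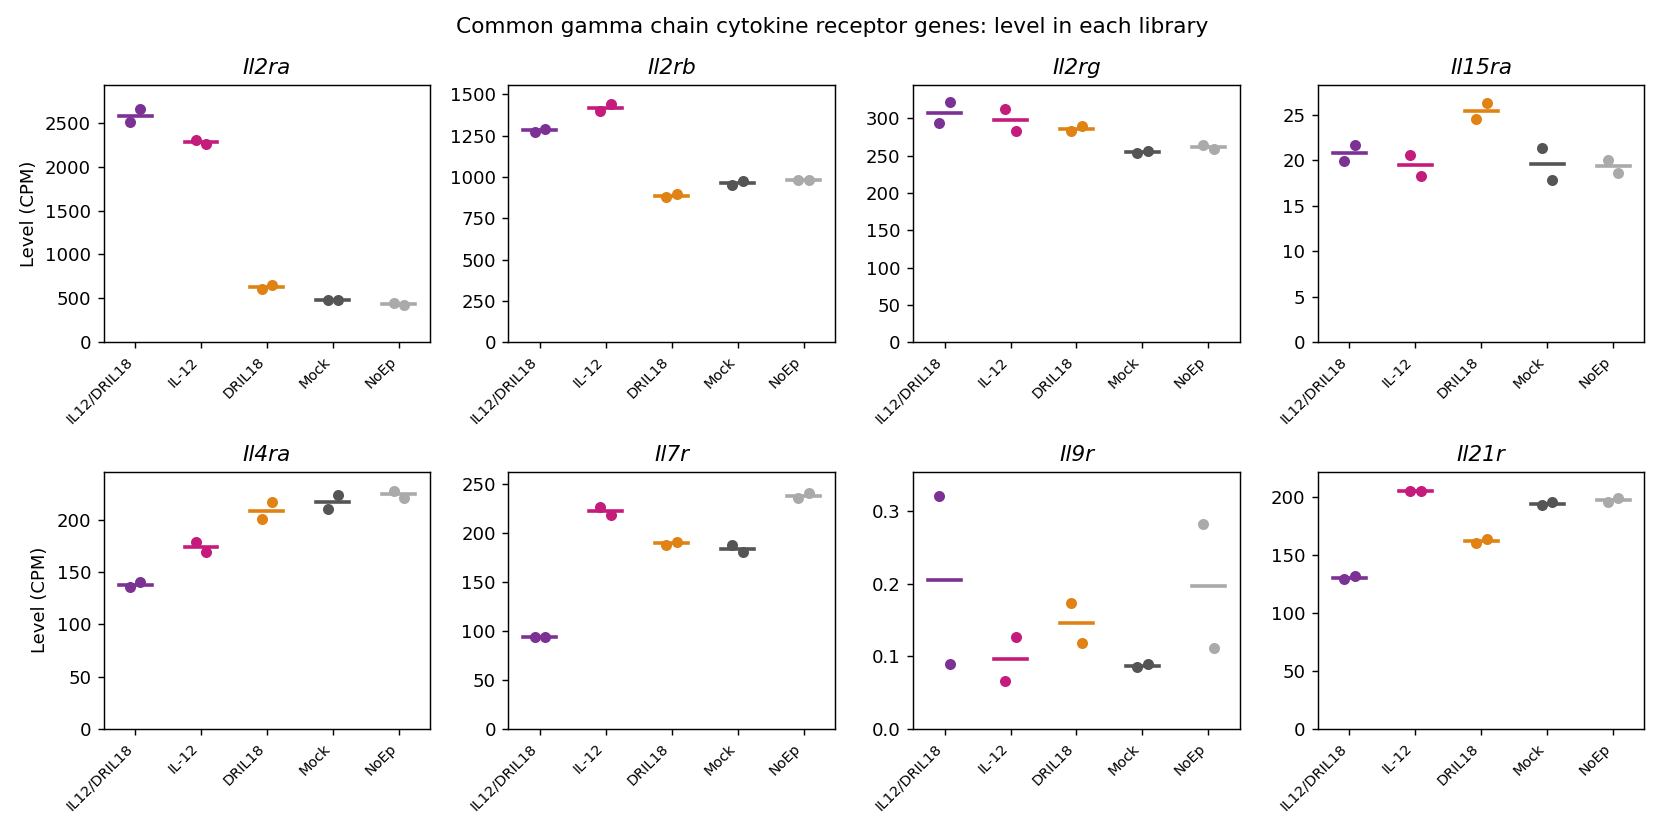
Level of each receptor gene in each library in CPM (linear axes that begin at 0 and differ between panels), by group; points are libraries and bars are means of 2 libraries. Il2ra is highest in IL12/DRIL18 and IL-12, Il7r is lowest in IL12/DRIL18, and Il9r stays under 0.4 CPM throughout.

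Il2ra had the largest change of the family. It stood at 2506 and 2655 CPM in IL12/DRIL18 libraries, at 2258 and 2310 CPM in IL-12 libraries, at 606 and 655 CPM in DRIL18 libraries, at 477 and 479 CPM in Mock libraries and at 420 and 444 CPM in NoEp libraries. The groups descended in that order and no neighbouring groups overlapped. Against Mock it was 5.39-fold higher in IL12/DRIL18 (log2 fold change 2.43 ± 0.04 SE, adjusted p = 2.02e-29), 4.77-fold higher in IL-12 (2.26 ± 0.04, adjusted p = 2.1e-28) and 1.32-fold higher in DRIL18 (0.40 ± 0.04, adjusted p = 3.34e-09). The difference between IL12/DRIL18 and IL-12 was 0.18 ± 0.04 on the log2 scale (adjusted p = 0.00026), so most of the level with both mRNAs was already reached with IL-12 alone. The smaller difference between Mock and NoEp (0.15 ± 0.04, adjusted p = 0.0185) lost its call without either Mock library (adjusted p = 0.155 without replicate 1 and 0.119 without replicate 2), without NoEp replicate 2 (adjusted p = 0.276) and with the mark bis as a term in the fit (0.19, adjusted p = 0.0997). By the root mean square difference of log2 CPM over the 10 libraries, the genes with the pattern most like that of Il2ra were Asph (0.153), Dgat1 (0.187) and Gm37881 (0.196), among 9746 genes whose median difference was 1.502.

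Il2rb, the signalling chain shared by the IL-2 and IL-15 receptors, moved less than Il2ra and in another order. Its level was 1275 and 1288 CPM in IL12/DRIL18 libraries, 1400 and 1441 CPM in IL-12 libraries, 877 and 896 CPM in DRIL18 libraries, 950 and 975 CPM in Mock libraries and 982 and 983 CPM in NoEp libraries. IL-12 libraries were the highest and DRIL18 libraries the lowest, with no overlap between neighbours in the order. Against Mock it was 1.33-fold higher in IL12/DRIL18 (0.41 ± 0.03, adjusted p = 3.31e-12) and 1.48-fold higher in IL-12 (0.56 ± 0.03, adjusted p = 7.26e-15). It was lower in DRIL18 by a small margin (-0.12 ± 0.03, adjusted p = 0.009), and this call was lost without DRIL18 replicate 1 (-0.11, adjusted p = 0.0991) or Mock replicate 2 (-0.10, adjusted p = 0.138). IL12/DRIL18 was below IL-12 alone (-0.15 ± 0.03, adjusted p = 0.000394), the opposite sign to the Il2ra difference between the same groups.

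Il2rg, the shared gamma chain, was the steadiest of the abundant chains, with group means that spanned 1.21-fold. It had 293 and 322 CPM in IL12/DRIL18 libraries, 282 and 313 CPM in IL-12 libraries, 283 and 290 CPM in DRIL18 libraries, 253 and 256 CPM in Mock libraries and 259 and 264 CPM in NoEp libraries. Neighbouring groups given cytokine mRNA overlapped, and all 6 of their libraries lay above all Mock and NoEp libraries. Against Mock it rose by 0.27 ± 0.04 in IL12/DRIL18 (adjusted p = 2.03e-06), 0.23 ± 0.04 in IL-12 (adjusted p = 6.67e-05) and 0.17 ± 0.04 in DRIL18 (adjusted p = 0.00357). The DRIL18 call was lost without DRIL18 replicate 2 (0.15, adjusted p = 0.067) or Mock replicate 1 (0.16, adjusted p = 0.0565). The difference between IL12/DRIL18 and DRIL18 (0.10 ± 0.04, adjusted p = 0.0428) was near the threshold and lost its call under 7 of 20 other settings. Exon bases of Il2rg are shared with Gm20489 on the same strand, which had 1 to 5 counts in any library.

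Per exon length, the makeup of the IL-2 receptor mRNA changed with the group. The RPKM ratio of Il2ra to Il2rb was 1.48 and 1.55 in IL12/DRIL18 libraries, 1.24 and 1.18 in IL-12 libraries, 0.519 and 0.549 in DRIL18 libraries, 0.379 and 0.367 in Mock libraries and 0.339 and 0.320 in NoEp libraries. The alpha chain message thus exceeded the beta chain message in the 4 libraries given IL-12 mRNA, alone or in the mixture, and was below it in the other 6. Il2ra made up 46.4% and 47.0% of the summed RPKM of the 8 genes in IL12/DRIL18, 40.2% and 39.9% in IL-12, 19.1% and 19.9% in DRIL18, 15.3% and 15.0% in Mock and 13.6% and 13.0% in NoEp libraries. The summed level was 945 and 988 RPKM in IL12/DRIL18 and 1007 and 991 RPKM in IL-12 libraries, against 550 and 557 RPKM in Mock libraries. Averaged over all libraries, Il2rb, Il2ra and Il2rg stood at the 99.0, 98.8 and 97.8 percentile of tested genes by RPKM, Il21r at 94.2, Il7r at 91.8, Il4ra at 89.5 and Il15ra at 52.8.

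**Figure D2:**
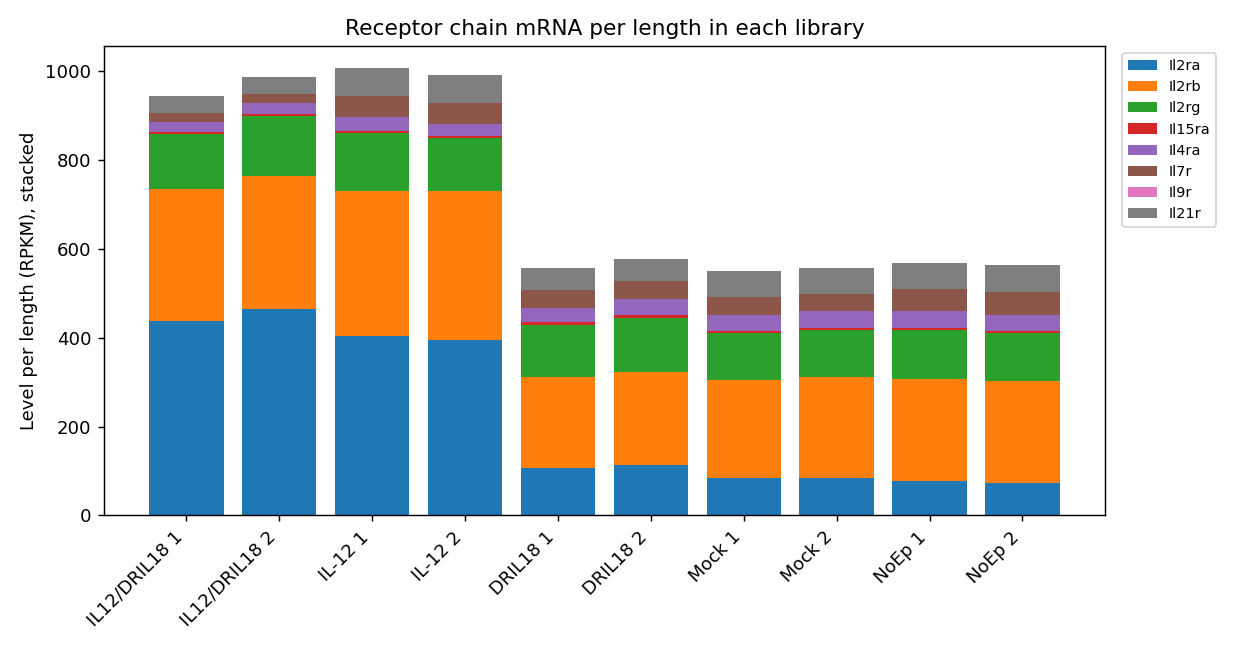
Level per exon length in RPKM of the 8 receptor genes, stacked, in each of the 10 libraries. The stack is taller in IL12/DRIL18 and IL-12 than in the other groups, and Il2ra is 46.4% and 47.0% of it in IL12/DRIL18.

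Il15ra, the alpha chain that binds and presents IL-15, was called against Mock in DRIL18. It had 19.9 and 21.6 CPM in IL12/DRIL18 libraries, 18.3 and 20.5 CPM in IL-12 libraries, 24.6 and 26.3 CPM in DRIL18 libraries, 17.9 and 21.3 CPM in Mock libraries and 18.6 and 20.1 CPM in NoEp libraries. Both DRIL18 libraries lay above all others, and the other 4 groups overlapped their neighbours in the order of levels. Against Mock the log2 fold change was 0.37 ± 0.08 in DRIL18 (adjusted p = 0.00111), 0.08 ± 0.09 in IL12/DRIL18 (adjusted p = 0.415) and -0.01 ± 0.09 in IL-12 (adjusted p = 0.912). The DRIL18 call was lost without Mock replicate 2 (0.26, adjusted p = 0.0798). IL12/DRIL18 was lower than DRIL18 (-0.29 ± 0.08, adjusted p = 0.00365), a call lost without DRIL18 replicate 2 or IL12/DRIL18 replicate 1, and IL-12 was lower than DRIL18 (-0.39 ± 0.09, adjusted p = 0.000449), which held under every setting run.

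Il7r, the chain that binds IL-7, fell with both mRNAs and was not called lower with either one alone. Its level was 93.6 and 93.7 CPM in IL12/DRIL18 libraries, 219 and 227 CPM in IL-12 libraries, 188 and 191 CPM in DRIL18 libraries, 181 and 188 CPM in Mock libraries and 236 and 241 CPM in NoEp libraries. The IL12/DRIL18 libraries lay far below all others, and no neighbouring groups overlapped. In IL12/DRIL18, Il7r was at 0.508 of the Mock level (-0.98 ± 0.04, adjusted p = 8.74e-20), while IL-12 raised it 1.21-fold (0.27 ± 0.04, adjusted p = 4.05e-07) and DRIL18 gave a log2 fold change of 0.04 ± 0.04 (adjusted p = 0.49). IL12/DRIL18 was at 0.420 of the IL-12 level (-1.25 ± 0.04, adjusted p = 3.28e-22) and 0.494 of the DRIL18 level (-1.02 ± 0.04, adjusted p = 5.03e-20). Mock was also lower than NoEp (-0.37 ± 0.04, adjusted p = 2.49e-07), and this call held under all 20 other settings, between -0.40 and -0.34. The Mock level is thus itself below that of cells without electroporation, and the rise with IL-12 against Mock ended below the NoEp libraries. The genes with the pattern most like that of Il7r, by the same measure as for Il2ra, were Trim12a (0.133), Smap2 (0.133) and Ssh3 (0.134), among genes whose median difference was 0.529.

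Il4ra, the IL-4 receptor alpha chain, declined across the groups given IL-12 mRNA. It had 136 and 140 CPM in IL12/DRIL18 libraries, 169 and 179 CPM in IL-12 libraries, 201 and 217 CPM in DRIL18 libraries, 210 and 224 CPM in Mock libraries and 222 and 228 CPM in NoEp libraries. DRIL18, Mock and NoEp overlapped as neighbours, and IL-12 and then IL12/DRIL18 lay below them. Against Mock it fell by 0.65 on the log2 scale in IL12/DRIL18 (SE 0.04, adjusted p = 2.33e-14) and by 0.32 in IL-12 (SE 0.04, adjusted p = 2.67e-07), and the value in DRIL18 was -0.05 ± 0.04 (adjusted p = 0.403). The antisense gene Gm44876, which shares exon bases with Il4ra, had 0 to 3 counts in any library.

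Il21r, the IL-21 receptor chain, was lowered with DRIL18 and lowered further with both mRNAs. It stood at 130 and 132 CPM in IL12/DRIL18 libraries, 205 and 206 CPM in IL-12 libraries, 160 and 164 CPM in DRIL18 libraries, 193 and 196 CPM in Mock libraries and 196 and 199 CPM in NoEp libraries. Mock and NoEp overlapped, and the other groups were separate. Against Mock the log2 fold change was -0.58 ± 0.04 in IL12/DRIL18 (adjusted p = 1.53e-14), 0.08 ± 0.04 in IL-12 (adjusted p = 0.082) and -0.26 ± 0.04 in DRIL18 (adjusted p = 2.02e-06). IL12/DRIL18 was also below IL-12 (-0.65 ± 0.04, adjusted p = 1.44e-15) and below DRIL18 (-0.31 ± 0.04, adjusted p = 2.31e-08). Il7r, Il4ra and Il21r were thus each lowest in the IL12/DRIL18 libraries, while the order of the other groups differed between them.

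Il9r, the IL-9 receptor chain, was close to undetected. It had 11 and 3 counts in IL12/DRIL18 libraries, 2 and 4 in IL-12 libraries, 6 and 4 in DRIL18 libraries, 3 and 3 in Mock libraries and 9 and 4 in NoEp libraries. The groups overlapped throughout, and their summed counts gave 0.206 CPM (95% exact Poisson interval 0.113 to 0.346, for counting error alone) in IL12/DRIL18 and 0.087 CPM (0.0319 to 0.189) in Mock. No difference was detectable at this depth, and with no filter on low counts the log2 fold change against Mock in IL12/DRIL18 was 1.21 ± 0.97 (adjusted p = 0.421).

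**Figure D3:**
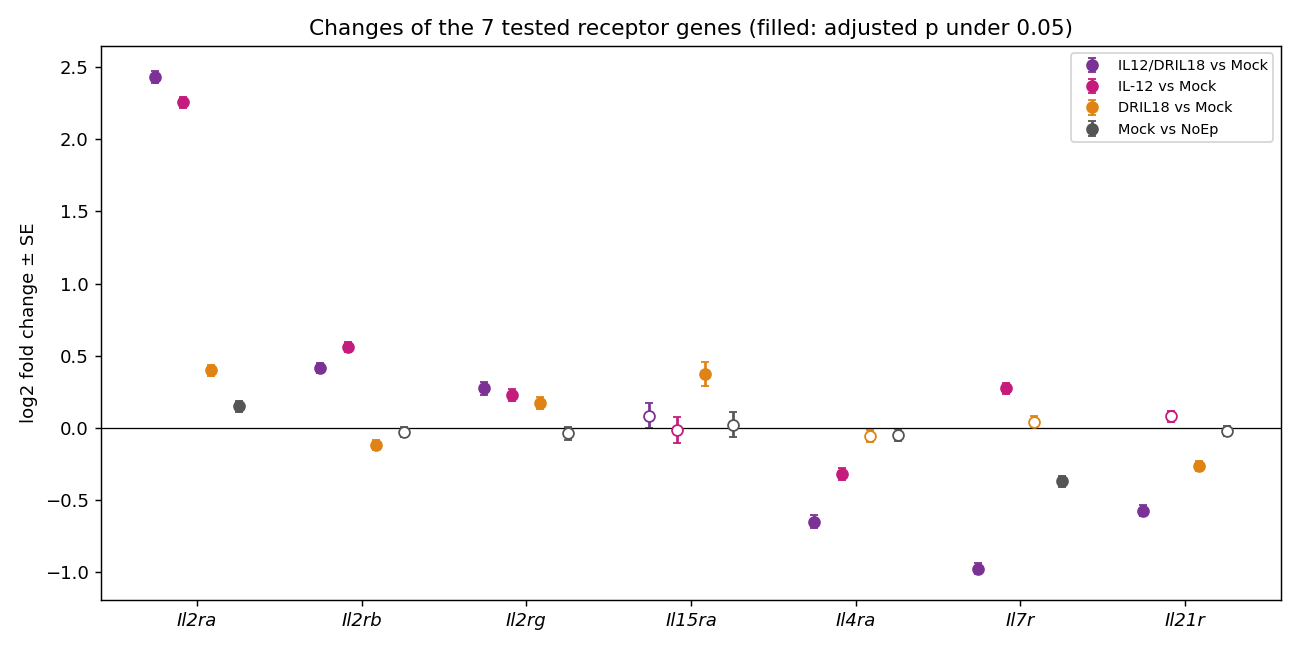
log2 fold change with its SE of the 7 tested receptor genes for IL12/DRIL18, IL-12 and DRIL18 against Mock and for Mock against NoEp; filled points have an adjusted p under 0.05. Il2ra reaches 2.43 and 2.26 with the mixture and with IL-12, and Il7r is at -0.98 with the mixture and above 0 with IL-12.

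To see whether both mRNAs together gave the sum of what each gave alone, the interaction was tested, which is the log2 change with IL12/DRIL18 minus the added log2 changes with IL-12 and with DRIL18, each against Mock. It was below 0 for 4 receptor genes and above 0 for none of the 7 tested, where 31.6% of all tested genes were called (14.6% above and 17.1% below 0). For Il7r the singles added to 0.31 and the mixture gave -0.98, an interaction of -1.29 ± 0.05 (adjusted p = 2.89e-18) that stayed between -1.32 and -1.26 under all other settings run. For Il21r the sum was -0.19 and the interaction -0.39 ± 0.05 (adjusted p = 6.1e-07), and for Il4ra the sum was -0.37 and the interaction -0.28 ± 0.06 (adjusted p = 0.000604). Il2ra rose by less than its sum of 2.65, with an interaction of -0.22 ± 0.06 (adjusted p = 0.00206). Il2rb (-0.03 ± 0.05, adjusted p = 0.703), Il2rg (-0.12 ± 0.06, adjusted p = 0.131) and Il15ra (-0.28 ± 0.12, adjusted p = 0.0833) missed the threshold. Il2rg passed it without IL-12 replicate 2 (-0.20, adjusted p = 0.0103) or IL12/DRIL18 replicate 2 (-0.19, adjusted p = 0.0225), and Il15ra without IL-12 replicate 2 (-0.36, adjusted p = 0.0359) or Mock replicate 1 (-0.41, adjusted p = 0.0208).

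**Figure D4:**
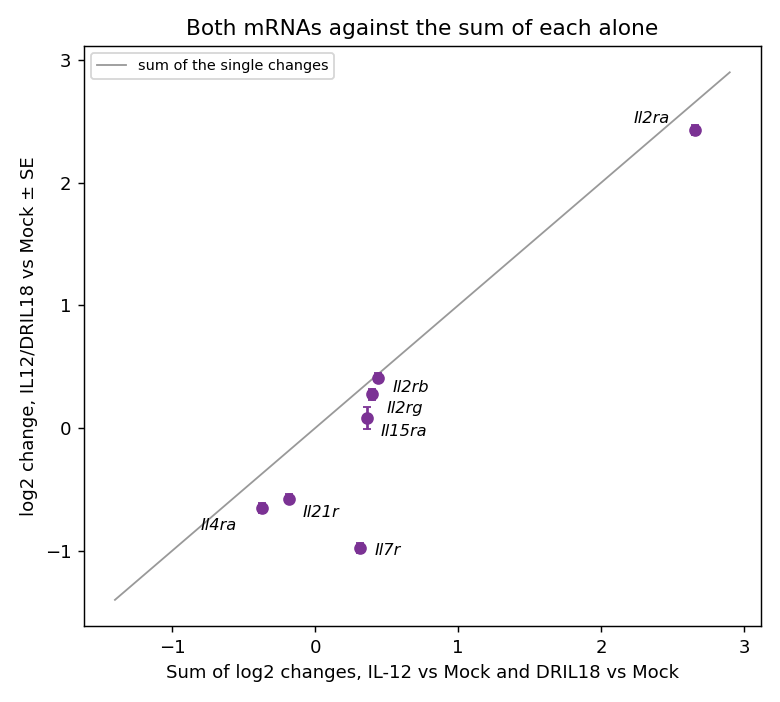
log2 change of each tested receptor gene with both mRNAs against Mock (vertical, ± SE) over the sum of its changes with IL-12 alone and DRIL18 alone (horizontal); the line marks equality. All 7 points lie below the line, and Il7r lies farthest from it, at -0.98 for a sum of 0.31. The interactions of Il2rb, Il2rg and Il15ra were not called, and the bars leave out the error of the sum.

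Set against one another, the mixture and the single mRNAs differed at most receptor genes. IL12/DRIL18 against IL-12 gave 1 receptor gene higher (Il2ra) and 4 lower (Il2rb, Il4ra, Il7r, Il21r) of 7, where 52.2% of all tested genes were called (25.8% higher and 26.3% lower). IL12/DRIL18 against DRIL18 gave 3 higher (Il2ra 2.03, Il2rb 0.53, Il2rg 0.10) and 4 lower (Il4ra -0.60, Il7r -1.02, Il15ra -0.29, Il21r -0.31), where 57.3% of all tested genes were called (28.3% higher and 29% lower). IL-12 against DRIL18 gave 4 higher (Il2ra 1.86, Il2rb 0.68, Il7r 0.23, Il21r 0.34) and 2 lower (Il4ra -0.26, Il15ra -0.39), where 39.5% of all tested genes were called (18.9% higher and 20.6% lower). With the mark bis as a term in the fit, the calls of IL12/DRIL18 against Mock were kept at all 7 genes, with Il2ra at 2.39, Il2rb at 0.38, Il2rg at 0.33, Il4ra at -0.67, Il7r at -0.96 and Il21r at -0.59. Both IL12/DRIL18 libraries and no Mock library carry the mark, so this fit cannot by itself part the mark from the mixture. Its term rests on the IL-12 and DRIL18 groups, where 1 library each carries the mark, and is taken as equal in all groups. The same limit holds for Mock against NoEp.

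Some of the receptor genes lie side by side in the genome (gene order from RefSeq, GRCm38.p6). Il15ra follows Il2ra on chromosome 2, yet in IL12/DRIL18 against Mock Il2ra changed by 2.43 and Il15ra by 0.08 (adjusted p = 0.415). The next gene before Il2ra, Rbm17, rose by 0.68 ± 0.05 there (adjusted p = 5.4e-14), and the next gene after Il15ra, Fbh1, fell by 0.35 (SE 0.06, adjusted p = 5.83e-06). Il21r follows Il4ra on chromosome 7. Both fell with the mixture, as did Nsmce1 before Il4ra (-0.90 ± 0.06, adjusted p = 8.38e-15), while Gtf3c1 after Il21r rose (0.32 ± 0.04, adjusted p = 4.59e-08). With single mRNAs the pair parted, since Il4ra fell with IL-12 and Il21r fell with DRIL18.

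The cells themselves held little message for the ligands. Il9 had 0 counts in every library, and Il2 had 8 counts over both IL12/DRIL18 libraries, 10 over IL-12, 10 over DRIL18, 7 over Mock and 5 over NoEp libraries. Il15 had 5, 3, 28, 7 and 13 counts in the same order of groups, and Il7 had 8, 1, 4, 6 and 5. Il4, the ligand of Il4ra, had 23, 5, 22, 16 and 15 counts, and it was higher in IL12/DRIL18 than in IL-12 (2.03, adjusted p = 0.0217) and lower in IL-12 than in DRIL18 (-1.95, adjusted p = 0.0369), calls that were both lost with any 1 library of the groups compared left out and with DESeq2. Il21, the ligand of Il21r, had 30 and 34 counts in IL12/DRIL18 libraries, 6 and 15 in IL-12 libraries, 0 in DRIL18, 0 in Mock and 1 in NoEp libraries. With 3 counts set over both Mock libraries as the limit that 0 allows, Il21 was at 21.6 times that limit in IL12/DRIL18 and at 7.73 times in IL-12. The error of the counts in IL12/DRIL18 and IL-12 is not included. Taken 1 library at a time, an alternative chosen after the data were seen, these values were 20.1 and 23.2 in IL12/DRIL18 and 4.50 and 10.8 in IL-12. Il21r was lowest in the group with the most Il21 counts, but highest in IL-12, the group with the next most. It was also lower in DRIL18 than in Mock, where Il21 had 0 counts in both. Whether the measurements are linked was not tested. Crlf2, which pairs with Il7r in the receptor for TSLP, had 24.1 and 26.1 CPM in IL12/DRIL18 and 34.8 and 38.9 CPM in Mock libraries (-0.55 ± 0.07, adjusted p = 4.09e-08).

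Downstream of the receptors, the kinase and STAT genes split. In IL12/DRIL18 against Mock, 4 of 6 rose and 2 fell (median 0.22), where 32% of all tested genes rose and 31.9% fell, with Stat5a at 1.00 ± 0.04 (adjusted p = 7.13e-20), Stat3 at 0.63 ± 0.04 (adjusted p = 4.04e-16), Jak1, the kinase of the specific chains, at -0.95 ± 0.03 (adjusted p = 6.87e-21) and Stat6 at -0.32 ± 0.04 (adjusted p = 8.82e-09). One of the 4 that rose, Jak3, the kinase of the gamma chain, lost its call with the mark bis in the fit (0.04, adjusted p = 0.649), with DESeq2 (0.16, adjusted p = 0.0684) and without IL12/DRIL18 replicate 2 (0.12, adjusted p = 0.083) or Mock replicate 1 (0.12, adjusted p = 0.112). In IL-12 alone 4 rose and 2 fell (median 0.35, with 46.6% of all tested genes called), led by Stat5a at 0.71 and Stat3 at 0.55. In DRIL18 alone 2 rose and 2 fell (median 0.06, with 24.3% of all tested genes called), with Stat3 at 0.35 ± 0.04 (adjusted p = 7.93e-09) and Jak1 at -0.28 ± 0.03 (adjusted p = 2.09e-07). The rise of Jak3 with DRIL18 (0.19, adjusted p = 0.00289) lost its call without Mock replicate 1 (0.15, adjusted p = 0.0898) and with DESeq2 (0.18, adjusted p = 0.0663), and the fall of Stat6 (-0.16, adjusted p = 0.00182) without Mock replicate 2 (-0.13, adjusted p = 0.0606).

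The feedback genes, which encode SOCS proteins and phosphatases that dampen cytokine signalling, gave 5 higher and 1 lower of 6 in IL12/DRIL18 against Mock (median 0.35), where 32% of all tested genes rose and 31.9% fell. Socs3 rose by 0.82, Ptpn2 by 0.50 and Socs1 by 0.43, and Socs2 fell by 1.18 on the log2 scale (SE 0.06, adjusted p = 3.82e-17). Cish, a direct STAT5 target, was among those that rose (0.14, adjusted p = 0.00764) but lost its call with the mark bis in the fit (0.05, adjusted p = 0.54) and without IL12/DRIL18 replicate 1 (0.09, adjusted p = 0.137) or Mock replicate 2 (0.13, adjusted p = 0.0567). It fell with IL-12 alone (-0.77 ± 0.05, adjusted p = 4.57e-15) and with DRIL18 alone (-0.39 ± 0.04, adjusted p = 4.48e-08). With IL-12, 3 feedback genes rose and 3 fell (median 0.22, with 46.6% of all tested genes called), and with DRIL18, 2 rose and 2 fell (median -0.04, with 24.3% called). Of the DRIL18 calls, that of Ptpn6 (0.13, adjusted p = 0.0154) was lost without DRIL18 replicate 2 (0.08, adjusted p = 0.287) or Mock replicate 1 (0.10, adjusted p = 0.218) and with the mark bis in the fit (0.12, adjusted p = 0.0511).

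Of 16 genes known as targets of STAT5 or IL-2, 13 rose and 3 fell in IL12/DRIL18 against Mock, with a median of 1.23 beside -0.0021 for all tested genes, of which 32% rose and 31.9% fell. After Ifng, the largest were Tnfrsf4, which encodes the costimulatory receptor OX40, at 3.97 ± 0.07 (adjusted p = 9.96e-29), the survival kinase gene Pim2 at 2.31 and the perforin gene Prf1 at 1.81. The 3 that fell were Bcl2 (-0.75), Gzmb (-0.55) and Mcl1 (-0.22), named after their values were seen. The rise of Osm (0.28) lost its call with the mark bis in the fit (0.21, adjusted p = 0.127). With IL-12, 10 rose and 5 fell (median 0.70, with 46.6% of all tested genes called), where the call of Bcl2l1 (-0.13, adjusted p = 0.0476) was lost under most settings and that of Osm (-0.24, adjusted p = 0.0209) without IL-12 replicate 1 or either Mock library. Pim2 was higher with IL-12 alone than with the mixture, at 887 and 507 CPM on average. Tnfrsf4 (20.8 and 128 CPM) and Prf1 (26.7 and 35.7 CPM) were lower with IL-12 alone. With DRIL18, 8 rose and 3 fell (median 0.14, with 24.3% of all tested genes called), led after Ifng by Pim2 at 0.79 and Tnfrsf4 at 0.67. Of those 11 DRIL18 calls, those of Prf1, Prdm1, Ccnd2, Ccnd3 and Gzmb were each lost without at least 1 library. Several of these genes are also induced by other cytokines, and the share of IL-2 family signals in their change was not tested. The list also leaves out Cish and Socs2, which were counted with the feedback genes and did not share the large rise. Cish averaged 183 CPM in IL12/DRIL18, 98.0 in IL-12 and 167 in Mock libraries. Socs2 averaged 28.2, 39.4 and 64.2 CPM in the same groups.

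Of 6 transcription factor genes known to act on Il7r, 5 fell and 0 rose in IL12/DRIL18 against Mock (median -0.81), where 31.9% of all tested genes fell and 32% rose. The list does not separate factors that raise Il7r from factors that lower it, so this count gives no direction for Il7r. Gfi1, named after its values were seen, was among those that fell, with means of 43.8 CPM in IL12/DRIL18 and 64.6 CPM in Mock. Klf2 had 7.06 and 7.36 CPM in IL12/DRIL18 libraries, 29.5 and 31.8 CPM in IL-12 libraries, 57.2 and 58.7 CPM in DRIL18 libraries, 86.8 and 91.7 CPM in Mock libraries and 104 and 115 CPM in NoEp libraries. It fell by 3.63 on the log2 scale against Mock with both mRNAs (SE 0.07, adjusted p = 1.21e-27), and Ets1 fell by 1.24 and Runx1 by 0.79. Foxo1 was lower in IL12/DRIL18 (-0.82 ± 0.04, adjusted p = 2.24e-18) and in DRIL18 (-0.32 ± 0.04, adjusted p = 6.37e-08) and higher in IL-12 (0.30 ± 0.04, adjusted p = 4.46e-08). With IL-12, 1 rose and 4 fell (median -0.15, with 46.6% of all tested genes called), of which Ets1 (-0.10, adjusted p = 0.09) and Gabpa (-0.13, adjusted p = 0.066) lost their calls without Mock replicate 2. With DRIL18, 0 rose and 4 fell (median -0.26, with 24.3% of all tested genes called).

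**Figure D5:**
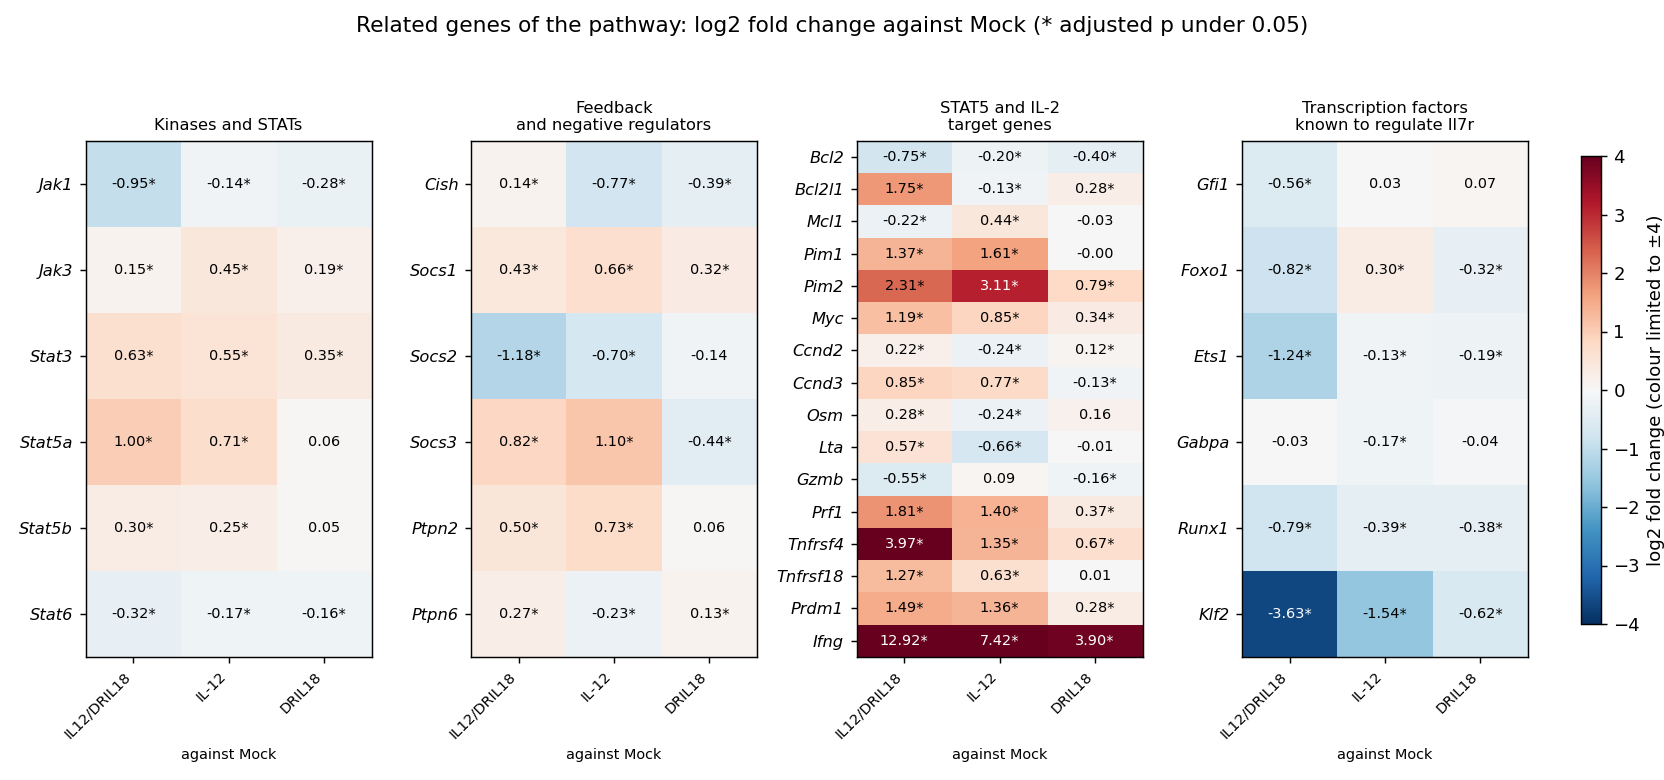
log2 fold change against Mock of the kinase and STAT genes, the feedback genes, the STAT5 and IL-2 target genes and the transcription factor genes known to act on Il7r, in IL12/DRIL18, IL-12 and DRIL18; a star marks an adjusted p under 0.05 and the colour is limited to 4 in either direction. Of the factors known to act on Il7r, Klf2 falls most, by 3.63 with the mixture.

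Other cytokine receptor chains of T cells were lowered more often than the common gamma chain family in IL12/DRIL18 against Mock, as a description without a test of that difference. Of 15 such genes, 4 rose and 10 fell (median -0.95), against 3 and 3 of the 7 tested here (median 0.08), where 32% of all tested genes rose and 31.9% fell. The largest were Il6ra at -3.57, the IL-18 receptor genes Il18r1 at 2.92 and Il18rap at 1.96, and the interferon receptor gene Ifnar2 at -1.95. Il18r1 averaged 551 CPM in IL12/DRIL18, 827 in IL-12, 39.9 in DRIL18 and 72.8 in Mock libraries. Il18rap averaged 311, 424, 51.8 and 80.2 CPM in the same groups. With IL-12, 6 rose and 7 fell (median -0.08, with 46.6% of all tested genes called), and with DRIL18, 3 rose and 9 fell (median -0.20, with 24.3% called).

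Markers of other cells were read beside these results, since CD25 and IL-7 receptor are found on other lymphocytes too. The 5 CD4 and regulatory T cell markers summed to 168 CPM in both IL12/DRIL18 libraries, to 304 to 312 in IL-12, 230 to 234 in DRIL18, 193 to 199 in Mock and 227 to 229 in NoEp libraries, and none was at 0. Most of that sum was Ctla4, which activated CD8 T cells also express, at 153 CPM in IL12/DRIL18, 295 in IL-12 and 170 in Mock libraries on average, while Cd4 averaged 5.25, 4.03 and 5.03 CPM, Ikzf2 8.34, 7.13 and 19.4 CPM and Foxp3 0.104, 1.49 and 1.03 CPM in the same groups. The 6 B cell markers summed to 539 to 555 CPM in IL12/DRIL18, 436 to 469 in IL-12, 897 to 946 in DRIL18, 677 to 678 in Mock and 680 to 685 in NoEp libraries, mostly from Ighm. The 5 natural killer cell markers summed to 283 to 287, 688 to 705, 230 to 231, 304 to 310 and 314 to 322 CPM in the same order of groups, mostly from Nkg7, which cytotoxic CD8 T cells also express, while the defining markers Ncr1 and Klrb1c averaged at most 0.192 and 0.103 CPM in any group. The 4 gamma-delta T cell markers summed to 23.2 to 23.7, 40.0 to 44.8, 61.9 to 66.2, 86.0 to 87.1 and 102 to 104 CPM, mostly from Trdc. The 8 dendritic cell and macrophage markers summed to between 6.16 and 23.8 CPM in any library, and single genes moved in opposite directions. Xcr1 averaged 7.99 CPM in IL12/DRIL18, 20.6 in IL-12 and 4.49 in Mock libraries. Itgax averaged 0.295, 1.08 and 4.21 CPM in the same groups. Of 7 mast cell and granulocyte markers, 4 were at 0 in all libraries, and the sum of 39.6 to 42.6 CPM in IL12/DRIL18, against 5.50 to 5.60 CPM in Mock, was mostly Kit. The part of these cells in the receptor levels was not tested.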

How the data were processed

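RNA from 10 libraries, 2 in each of 5 groups, was sequenced after TruSeq Stranded mRNA preparation, per the labels' protocols. Per the submitters' processing notes, STAR 2.7.9, the build mm39, featureCounts, edgeR and limma were used. The authors deposited whole-number raw counts per gene and a table of log2 CPM values for 13225 genes. These deposited log2 values equal limma voom values of the deposited counts with TMM factors within 1e-10. The sources used here give neither strand setting nor annotation release.

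Counts were fitted with edgeR 4.0.16 in R 4.3.3, with 5 group means, TMM scaling (factors 0.955 to 1.03) and filterByExpr. The quasi-likelihood test has 5 residual degrees of freedom per gene and also shares information on the spread across genes. The p-values thus rest on more than these 5. Each SE is the absolute log2 fold change divided by the square root of the F statistic. P-values were adjusted by Benjamini and Hochberg over all 15777 tested genes in each comparison, and a gene was called at an adjusted p under 0.05. The procedure was tested on simulated data. In these, few genes changed, and only in IL12/DRIL18, unlike in the measured libraries. The common coefficient of variation between libraries was 3.39%. CPM are on TMM-scaled library sizes, and RPKM divide them by the joined exon length of each gene in GENCODE M21 on GRCm38, which is not the counting build. Symbols from the same annotation matched 52083 of 55359 identifiers. All sample columns were matched to samples by group name and replicate number. No reads were realigned.

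All 8 receptor genes are named in each comparison with Mock. Of each related list, up to 4 called members with the largest changes are named. One gene of these lists is not reported here and was left out of its list's counts. For receptor genes whose group means differ at least 2-fold, the 3 tested genes of at least 5 CPM with the most similar log2 CPM (prior count 2, less the Mock mean) are named, and Il9r, untested, was left out. The receptor genes and the lists were chosen with earlier results of these data known. Alternatives were other scalings, filters, DESeq2 1.42.0, limma 3.58.1 (voom, and on the deposited log2 values), the compared groups alone, a replicate block, the mark bis as a covariate, and each library left out.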

Additional observations from a re-analysis of the deposited data

Results flagged for a closer look

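Of the receptor genes, 4 changed with both mRNAs by another amount than the sum of the changes with IL-12 and with DRIL18 alone, by the interaction test of the edgeR fit. The interaction was -1.29 for Il7r (adjusted p = 2.89e-18), -0.39 for Il21r (adjusted p = 6.1e-07), -0.28 for Il4ra (adjusted p = 0.000604) and -0.22 for Il2ra (adjusted p = 0.00206), on the log2 scale. Il7r is the one whose sign differs, since the sum of its single changes was 0.31 and its change with both was -0.98. No group has enough libraries to look for single outlying samples.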

How the results depend on the processing

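The counts of receptor genes and of all genes called held within 1.5 times of the reported ones under the other settings run, apart from DRIL18 against Mock and Mock against NoEp. With the mark bis as a covariate, Mock against NoEp gave 1 receptor gene in place of 2 and 172 of all genes in place of 1102. Leaving out each library in turn, DRIL18 against Mock gave 3 to 5 receptor genes and 2525 to 4125 of all genes (5 and 3832 with all libraries), with the lowest without Mock replicate 2. Mock against NoEp then gave 1 to 2 receptor genes and 242 to 1399 of all genes, with 242 without Mock replicate 1, 349 without Mock replicate 2 and 350 without NoEp replicate 2. The cause of these shifts was not tested.

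Of the single receptor genes, 18 values lost their call, 7 gained one and 10 changed sign among 1120 recomputed. None of those that changed sign was called under either setting. They were Il15ra in IL12/DRIL18 against Mock (-0.033 to 0.22 leaving out a library) and in IL-12 against Mock (-0.13 to 0.12), Il15ra in Mock against NoEp (-0.11 to 0.14, and -0.0006021 with the mark bis), Il2rb in Mock against NoEp (0.0069 with the mark bis), and Il2rg in IL12/DRIL18 against IL-12 (-0.027 to 0.12) and in IL-12 against DRIL18 (-0.015 to 0.13). Il2rg passed in these last comparisons without IL-12 replicate 1 (adjusted p = 0.0328) and without IL-12 replicate 2 (adjusted p = 0.023), and Il21r in IL-12 against Mock with limma on the deposited log2 values (0.09, adjusted p = 0.0444). Between scalings, the median of all tested genes moved by at most 0.05 (log2).

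Replicate numbers showed no sign of pairing, as the log2 CPM differences between replicates of a group correlated across groups at -0.03 to 0.05. These correlations span all tested genes, and noise of single libraries also lowers them, so they cannot exclude pairing. With a replicate block, the receptor genes called stayed at 6, 5, 5 and 2 for IL12/DRIL18, IL-12 and DRIL18 against Mock and for Mock against NoEp, at 5, 7 and 6 for the comparisons among cytokine groups and at 4 for the interaction. Depth limits what can be said of Il9r and of the ligand genes, which had few counts.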
